A study of Mus musculus with 21 samples.

Results

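The transcripts described here were measured by array probes that carry no gene name and are named by an interval of the mouse genome (build mm9) and a strand. Members were chosen by the scanner software's mark for signal well above background: a probe had to carry it on every array of 1 or more of the 9 sample groups. Of 16194 coordinate-named probes among the 55681 probes of the array, 6581 met that rule. They fall in 2418 of the 3543 intervals named by the array design, and joining intervals within 10 kb of each other gave 1523 loci. The design's names do not say which genes lie near these intervals, and their gene annotation, exons and introns were not analysed here. The letters F and R below are the strand letters in the probe names.

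The labels name the cells as MIN6m9, a subline of the mouse insulinoma (beta-cell tumour) line MIN6, although the growth protocol given with every sample speaks of mice. In a fatty acid experiment, wild-type cells were left untreated or received 400 uM oleate or 400 uM palmitate for 48 h, with 3 arrays per group. In a PERK experiment, wild-type cells with mock treatment, Fv2E-PERK cells with mock treatment, and Fv2E-PERK cells given 1 nM AP20187 for 6, 12, 24 or 48 h were compared, with 2 arrays per group. The vehicle of AP20187 was ethanol. When untreated and mock cells were harvested, which promoter drives the transgene and whether the line is 1 clone is not stated in the labels. Fv2E-PERK is the PERK kinase joined to a domain that the small molecule AP20187 pulls into dimers. One wild-type mock array carries replicate numbers that differ between its labels, and nothing says that replicates were separate cultures, so p-values reflect the spread between arrays, which may be technical.

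PERK is a kinase of the endoplasmic reticulum membrane that is switched on when unfolded proteins build up, and it slows translation by phosphorylating an initiation factor while messages of a stress programme are favoured. Palmitate, a saturated fatty acid, is known to stress the endoplasmic reticulum of beta cells, whereas the unsaturated oleate is known to do so much less. Long transcripts from intervals without protein-coding genes include long noncoding RNAs, unprocessed extensions of neighbouring genes and RNAs made at enhancers, and a probe on its own cannot tell these apart.

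Each array's signal was set relative to its own 75th percentile, which lay between 336 and 823 signal units over the 21 arrays, with the 48 h arrays highest at 823 and 739. Between 46.8% and 56.9% of all probes were well above background on an array. Median levels of 10 beta-cell genes lay between 4.57 and 5.99 (log2 relative to the 75th percentile) on all arrays. The median level of 12 heart muscle genes was -0.49 to 0.03 in untreated samples and -0.71 to 0.25 with oleate, but -6.22 to -3.92 with palmitate and -6.13 to -4.25 in the PERK experiment. Skeletal muscle genes such as Myh4, a fast myosin heavy chain, were high on palmitate replicates 1 and 2 (both 2.1) and not on replicate 3. The count of palmitate calls and the palmitate changes of the loci described in detail are given with and without replicates 1 and 2. Without them 1 palmitate array is left, replicate 3. It was on another slide than all other fatty acid arrays, so slide and palmitate cannot be told apart in that setting. The part of the muscle transcripts in the members' changes was not tested. In these bulk samples fewer cells of a type and less RNA per cell cannot be told apart.

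Coordinate-named transcripts were above background less often than named genes. In all, 40.6% of the coordinate-named probes met the rule, against 71.0% of the probes with a gene symbol and 50.8% of the other probes without a symbol. The share above background in a single group ran from 25.4% in Fv2E-PERK mock cells (4108 probes) to 36.2% after 48 h of AP20187 (5857 probes). The other groups held 29.5% (untreated), 31.5% (oleate), 31.4% (palmitate), 31.0% (wild-type mock), 28.9% (6 h), 31.2% (12 h) and 29.4% (24 h). These shares are what chose the members and are given as a description.

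**Figure D1:**
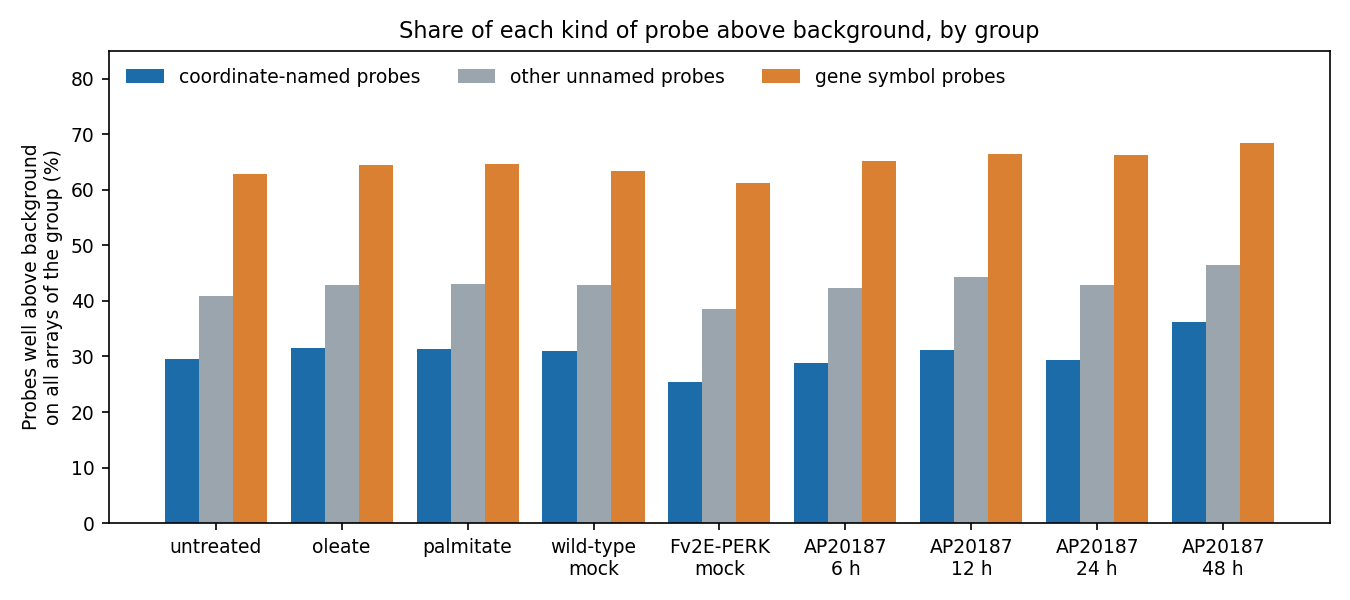
Bars give the percentage of probes well above background on all arrays of a group (vertical axis) in the 9 groups (horizontal axis), by kind of probe. Coordinate-named probes are lowest in every group, between 25.4% in Fv2E-PERK mock cells and 36.2% after 48 h of AP20187.

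Most members were seen widely. Of the 6581, 3634 (55.2%) were above background on all 21 arrays, against 82.7% of the probes with a symbol that met the same rule. Another 730 members met the rule in 1 group alone, and 411 of these did so after 48 h of AP20187, 98 after 12 h, 82 in wild-type mock cells and 4 in Fv2E-PERK mock cells. The 48 h arrays also had the brightest signals and the largest share of all probes above background, and the part of brightness in this count was not tested. At the edge of the rule, 144 members were above background on 2 arrays, while the nonmember seen on the most arrays was above background on 9 without filling a group. Members' levels in their best group ran from -4.88 to 9.01 with a median of -2.26, and the highest group mean of a nonmember was -0.76.

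Many intervals held member probes of both strands. The members comprised 3138 F and 3438 R probes and 5 without a strand letter. Of 748 intervals with at least 3 probes on each strand, 469 had members on both strands, 104 on F alone, 131 on R alone and 44 on neither. In 33 of them every probe of 1 strand was a member and no probe of the other was, and in 15 every probe of both strands was. A single member probe per strand was enough for the count of 469, and 40.6% of all coordinate-named probes were members. Whether 469 exceeds what unrelated probes would give was not tested. Members came from 20 chromosomes, with shares from 30.7% of the coordinate-named probes on chromosome 9 to 48.6% on chromosome 17. Intervals of up to 1 kb had a lower share (33.6%) than those of 1 to 10 kb (44.4%), 10 to 50 kb (41.3%) or over 50 kb (39.4%).

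Few members changed past the threshold with oleate. Changes are log2 differences between group means with the standard error (SE) of a limma fit to all entries, 1 probe per gene symbol and each other probe on its own, and a call means a Benjamini-Hochberg adjusted p under 0.05. Of 5395 members tested in the fatty acid experiment, 3 were higher and 10 lower with oleate than in untreated cells, where 0.6% of all 24314 entries were called (0.243% higher, 0.358% lower). At an unadjusted p under 0.05 there were 615 members, so a missing call does not show an unchanged level. Leaving out any 1 array gave 0 to 8 called members, and the 3 probes named next lost their oleate call without any 1 of the untreated or oleate arrays. A rise was called at chr9:118291593-118324230, strand F (A_30_P01021929), with -3.27, -3.17 and -3.29 in untreated cells, -2.66, -2.70 and -2.46 with oleate and -2.19, -1.97 and -1.98 with palmitate. Its levels did not overlap between groups, with a change of 0.63 ± 0.09 (SE, n = 3; adjusted p = 0.0257) for oleate and 1.20 ± 0.09 (SE, n = 3; adjusted p = 0.00017) for palmitate, or 1.26 (adjusted p = 0.00693) without palmitate replicates 1 and 2. The other 2 higher calls lay in the locus chr2:94082835-94101939, among 6 tested probes. There A_30_P01020369, strand R, read 0.69, 0.58 and 0.82 untreated and 1.19, 1.12 and 1.29 with oleate, a change of 0.50 (adjusted p = 0.0353), whose call was also lost without any 1 palmitate array. The probe at chr4:141100989-141106639, strand R (A_30_P01019925), fell by 0.64 with oleate (adjusted p = 0.0451). It lay between -3.62 and -3.47 in untreated cells and between -4.27 and -4.11 with oleate.

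Palmitate lowered more coordinate-named transcripts than it raised, by small amounts. Against untreated cells 134 members were higher and 540 lower (674 in all, 12.5% of those tested), where 18.1% of all entries were called. By direction, 2.48% of members were higher and 10.01% lower, against backgrounds of 6.5% and 11.6%. Called changes of at least 2-fold were made by 20 members upward and 9 downward (22 and 37 without palmitate replicates 1 and 2), and the median change was -0.08 for members and -0.05 for all entries. Among the 4622 members above background on all arrays of both groups, 107 were higher and 512 lower.

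The number of calls depended on single arrays and on the scaling. It was 444 without untreated replicate 2, 405 without palmitate replicate 1 and 318 without palmitate replicates 1 and 2 together, a setting that kept 27 of the higher and 165 of the lower calls. Scaling to the spike-in probes moved the median change of all entries up by 0.18 and turned the split, so that 80.4% of 158 called members were higher, against 19.9% in the main setting. Of the 540 lower members, 434 were above background on all 12 PERK arrays, and of the 134 higher members 104 were. The part of heart muscle RNA in these changes was not tested. Against oleate, 143 members were higher and 238 lower with palmitate, where 12.2% of all entries were called (6.52% higher, 5.65% lower). Leaving out oleate replicate 1, 2 or 3 or palmitate replicate 1 gave 162, 168, 230 or 198 calls in all. Under spike-in scaling 97.8% of the 183 called members were higher in that comparison, against 37.5%.

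The clearest locus that rose with palmitate was chr17:71183978-71185384, strand F, where all 3 probes were higher. Its probe A_30_P01021048 read -3.13, -3.36 and -2.81 in untreated cells, -2.93, -3.24 and -3.01 with oleate and -1.74, -1.62 and -1.56 with palmitate. The palmitate arrays lay above all untreated and oleate arrays, and the change from untreated was 1.46 ± 0.14 (SE, n = 3; adjusted p = 0.000657). Without palmitate replicates 1 and 2 it was 1.54 (adjusted p = 0.0213). The same probe read -1.93 and -2.00 in Fv2E-PERK mock cells, -0.28 and -0.24 after 6 h, 0.22 and 0.62 after 12 h, 0.04 and -0.06 after 24 h and -0.69 and -0.91 after 48 h. All AP20187 arrays lay above the mock arrays, by 1.70, 2.39, 1.96 and 1.17 at the successive times (SE 0.13 each; largest adjusted p = 0.000145).

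A second rising region lay on chromosome 15, where adjoining intervals shared strand F. At chr15:62090565-62091770 (A_30_P01021592) the untreated values were -3.30, -3.68 and -3.35 and the palmitate values -2.23, -2.27 and -2.15. The groups did not overlap, and the change was 1.23 ± 0.15 (SE, n = 3; adjusted p = 0.0019), or 1.29 without palmitate replicates 1 and 2 (adjusted p = 0.0389). With AP20187 this probe did not pass at 6 h (0.25, adjusted p = 0.106) and rose by 0.89, 1.81 and 1.02 at 12, 24 and 48 h. The neighbouring interval chr15:62007025-62090191 (A_30_P01028541) was above background on no untreated and no mock array and on all palmitate and AP20187 arrays. For a probe not well above background in the dimmer group the fold is a lower bound, taken per array against the higher of its own signal and the lowest signal among probes above background there. This probe was at least 1.35-fold higher with palmitate than in untreated cells (adjusted p = 0.0235). It lost its call without any 1 of 4 arrays, namely untreated replicates 1 and 3 and palmitate replicates 2 and 3, with adjusted p between 0.0529 and 0.0685, and with normexp the adjusted p was 0.644. Without palmitate replicates 1 and 2 it was 0.129.

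On chromosome 4, 2 probes of opposite strands went different ways against untreated cells. Of the 9 tested probes of their locus, 3 were higher and 0 lower with palmitate than with oleate. Counts for this locus against untreated cells are not given here. At chr4:149445201-149445902, strand F, probe A_30_P01025511 read -2.55, -2.48 and -2.29 untreated and -1.22, -1.55 and -1.21 with palmitate. The change was 1.11 ± 0.11 (SE, n = 3; adjusted p = 0.000731), or 1.23 (adjusted p = 0.00942) without palmitate replicates 1 and 2, and the groups did not overlap. On strand R of the overlapping interval chr4:149383134-149451259, A_30_P01027199 fell by 0.42 (adjusted p = 0.0296). That call did not hold without untreated replicate 1, oleate replicate 1 or any palmitate array, nor under spike-in scaling (-0.23, adjusted p = 0.262), and without palmitate replicates 1 and 2 the change was -0.41 (adjusted p = 0.188). With AP20187 the F probe was lower, not higher, by 0.72 after 6 h, 1.15 after 12 h and 1.21 after 24 h.

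A similar difference was seen between 2 probes of chr19:5771425-5848475. Of the 25 tested probes of this locus, 8 were higher and 1 lower with palmitate than with oleate. Its counts against untreated cells are not given here. The F probe (A_30_P01020769) read 3.08, 2.87 and 2.89 untreated and 2.45, 2.55 and 2.57 with palmitate, a fall of 0.42 (adjusted p = 0.00869). The R probe (A_30_P01028538) read 0.47, 0.38 and 0.54 untreated and 0.99, 0.88 and 1.03 with palmitate, a rise of 0.50 (adjusted p = 0.00197), or 0.56 (adjusted p = 0.0241) without palmitate replicates 1 and 2. Neither probe's groups overlapped, and the fall lost its call under spike-in scaling (-0.24, adjusted p = 0.239) and without palmitate replicates 1 and 2 (-0.38, adjusted p = 0.105).

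Among the probes that fell with palmitate, 1 locus fell along its whole length. All 10 probes of chr14:21437920-21464655, strand F, were lower, by 0.37 to 0.66. Its probe A_30_P01028346 read 0.97, 0.96 and 0.85 untreated, 0.65, 0.73 and 0.71 with oleate and 0.25, 0.21 and 0.33 with palmitate, so the groups kept apart in that order. The change from untreated was -0.66 ± 0.06 (SE, n = 3; adjusted p = 0.000402), and with spike-in scaling it was -0.48 (adjusted p = 0.0694). At 6 h of AP20187, 9 of the 10 probes of this locus were higher than in mock cells and 0 lower. Elsewhere single probes fell with palmitate. At chr5:74487385-74497428, strand F, A_30_P01032580 was at 5.41, 5.22 and 5.20 untreated and at 4.16, 4.25 and 4.37 with palmitate, a change of -1.01 ± 0.10 (SE, n = 3; adjusted p = 0.000669). Of the 13 tested probes of its locus 2 were lower and 1 higher with palmitate. This probe also fell at 6, 12 and 24 h of AP20187, by 1.40, 1.79 and 1.21, and was lower in Fv2E-PERK mock than in wild-type mock cells by 2.35. At chr8:122807653-122823000, strand R, A_30_P01024063 fell by 1.09 with palmitate (adjusted p = 0.00206) and by 1.03, 0.96, 2.29 and 2.20 at the AP20187 times, and 2 of the 7 tested probes of its locus were lower with palmitate. Without palmitate replicates 1 and 2 the palmitate changes of the last 3 probes were -0.59, -0.90 and -1.30, and all 3 kept their calls.

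The palmitate and AP20187 comparisons share no arrays, so their calls could be set side by side. Among members tested in both experiments, 339 of the 522 lower with palmitate were also lower at 24 h of AP20187, which is 64.9% of the palmitate list and 13.0% of the AP20187 list, where 50.1% of all these members were lower at 24 h. Of the 129 higher with palmitate, 62 were also higher at 24 h, or 48.1% of the palmitate list and 10.5% of the AP20187 list, where 11.3% of all these members were higher. Over all entries the shares of the palmitate lists at 24 h were 58.8% lower and 51.4% higher. The other times gave smaller shares of the palmitate list for lower members, 51.5% after 6 h (47.2% of all these members), 54.0% after 12 h (47.7%) and 58.6% after 48 h (26.2%). For higher members they were 29.5% after 6 h (10.7%), 35.7% after 12 h (13.2%) and 46.5% after 48 h (23.7%). After 6 h 38 of the 129 were higher and 35 lower. Without palmitate replicates 1 and 2, 145 of 224 lower members (64.7%) but only 14 of 69 higher members (20.3%) were called the same way at 24 h. Of the 5195 members tested in both experiments, 26 were called upward with palmitate and at all 4 AP20187 times, in 16 loci. Downward there were 168, in 104 loci. At all 4 AP20187 times alone, 4.36% of members were higher and 13.6% lower, against 11.6% and 18.4% of all entries. The share of all entries called alike with palmitate and at all 4 times is not given here. Whether these shares differ from chance was not tested.

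For the first 24 h of AP20187, called members were more often lower than higher in the main setting, a direction that rested on the scaling. Their share called lower was only a little above that of all entries, while their share called higher was clearly smaller. Of 6381 members tested, 680 were higher and 2662 lower at 6 h than in Fv2E-PERK mock cells, 936 and 2668 after 12 h, and 778 and 2828 after 24 h, while 61.9%, 65.1% and 64.7% of all 27050 entries were called. As shares of members, 41.7%, 41.8% and 44.3% were lower, against backgrounds of 39%, 39.5% and 39.6%, and 10.7%, 14.7% and 12.2% were higher, against 22.9%, 25.6% and 25.1%. The median change of the members was -0.45, -0.41 and -0.48, and that of all entries -0.25, -0.21 and -0.23, so members lay 0.20, 0.20 and 0.25 below. At 6 h, members lay lower than other entries in each of 4 ranges of mean signal, for example -0.58 against -0.23 among those above 1. Members above background on all arrays of both groups had medians of -0.50, -0.52 and -0.55.

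The direction of the count rested on the scaling, while the members' median stayed below that of all entries with quantile normalization and normexp. Spike-in scaling moved the median of all entries up by 0.67, 0.73 and 0.94 at 6, 12 and 24 h, and 79.5%, 82.0% and 88.0% of called members were then higher, against 20.3%, 26.0% and 21.6% in the main setting. With normexp background correction 8.59%, 14.1% and 11.8% were higher. Spike-in scaling shifts all probes of an array alike, so it cannot change the gap between members and all entries. With quantile normalization the members' median still lay 0.19, 0.22 and 0.23 below that of all entries. With normexp the gap was 0.14, 0.11 and 0.13. Single falls of less than about the shift therefore have no settled sign, and changes below are given relative to each array's 75th percentile.

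At 48 h the picture differed. Members higher than in mock cells numbered 1580 and members lower 1454, where 59.3% of all entries were called (26.5% higher, 32.7% lower). Their median was 0.05, against -0.06 for all entries. Among the 4049 members above background on all arrays of both groups the split was reversed. Of these, 923 were higher and 1258 lower, with a median of -0.11. The members' median lay 0.10 above that of all entries in the main setting, a gap that spike-in scaling cannot change. It lay 0.01 above with quantile normalization but 0.08 below with normexp. From 6 h to 48 h 2750 members rose and 887 fell, where 59.3% of all entries were called (33.6% higher, 25.7% lower). The members' median change was 0.50 against 0.14 for all entries. That gap was 0.36 in the main setting, 0.23 with quantile normalization and 0.10 with normexp. Among the 4532 members above background on all arrays of both groups, 1999 rose and 779 fell, with a median of 0.38. Called members at 48 h were higher in 52.1% of cases, in 91.2% under spike-in scaling and in 19.3% under normexp; between 48 h and 6 h they were higher in 75.6%, and in 64.4% after quantile normalization.

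The 48 h arrays and the wild-type mock arrays were on 1 slide and the other PERK arrays on another, so slide and group cannot be told apart in comparisons of 48 h with mock or with 6 h. Against wild-type mock cells on the same slide, a comparison added after the data were seen, 1311 members were higher and 1779 lower at 48 h, where 61.3% of all entries were called (26.4% higher, 34.9% lower). The groups of this comparison differ in Fv2E-PERK as well as in AP20187, so the parts of each cannot be told apart. Of 6381 members tested, 1064 were called upward and 1234 downward against both mock groups, and 48 were called in opposite directions. The share of all entries called against both mock groups is not given here.

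**Figure D2:**
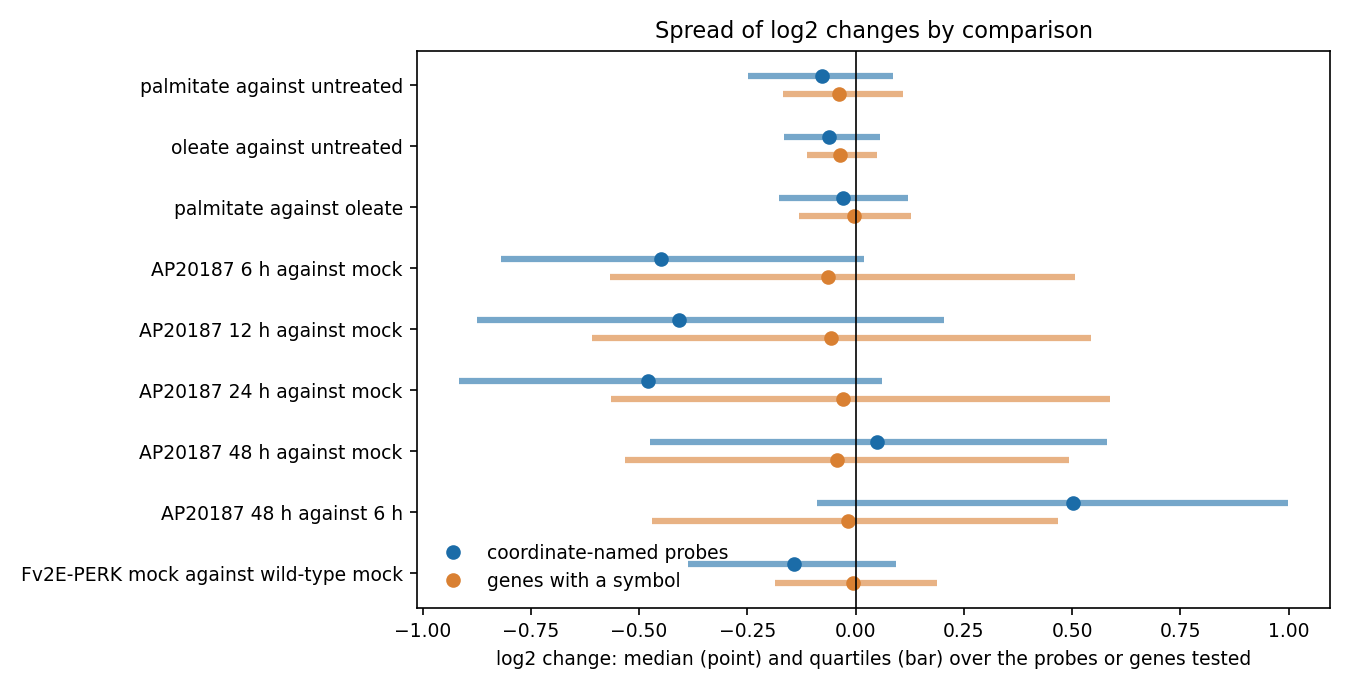
Points give the median and bars the quartiles of the log2 change (horizontal axis) in each comparison (vertical axis), for coordinate-named members and for genes with a symbol. Members sit to the left of named genes at 6, 12 and 24 h (medians -0.45, -0.41 and -0.48 against -0.06, -0.06 and -0.03) and to the right between 48 h and 6 h (0.50 against -0.02).

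**Figure D3:**
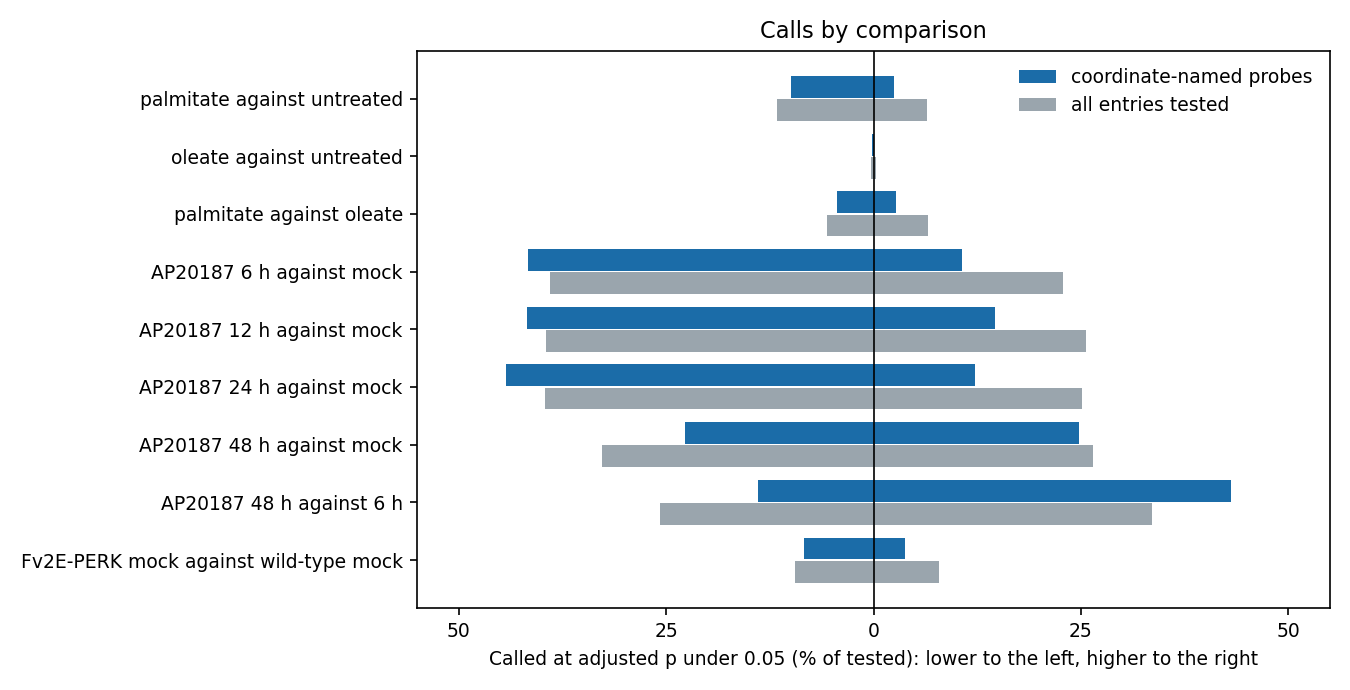
Bars give the percentage of tested members and of all entries called lower (to the left) or higher (to the right) at an adjusted p under 0.05 in each comparison. Members called higher are fewer than among all entries at 6, 12 and 24 h, and at 48 h 24.8% are higher and 22.8% lower.

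By time course, 869 members (13.6%) were lower at all 4 times and 278 (4.36%) higher at all 4, against 18.4% and 11.6% of all entries. Another 831 (13.0%) were lower at 6, 12 and 24 h and not called at 48 h, and 223 (3.49%) were lower at those 3 times and higher at 48 h, against 7.93% and 1.70% of all entries. A further 407 (6.38%) were higher at 48 h alone, and 1186 (18.6%) were called at no time, against 3.50% and 12.3%. In all, 476 members (7.46%) were lower at 6 h and higher at 48 h, and 121 (1.90%) were higher at 6 h and lower at 48 h, against 4.48% and 3.16%. These differences in shares were not tested.

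Called probes of 1 interval and strand mostly went the same way. At 6 h, 783 interval strands had at least 2 called members, and in 711 all went the same way; at 48 h this was 588 of 697, and with palmitate 148 of 151. Where both strands of an interval held calls, they went the same way in 218 intervals and opposite ways in 39 after 6 h, and the same way in 99 and opposite ways in 90 after 48 h. Of all called members 20.3% were higher at 6 h, 52.1% at 48 h and 19.9% with palmitate. Unrelated called probes would therefore often agree too, above all at 6 h and with palmitate. How far the agreement exceeds that was not tested. Probes of 1 interval and strand may measure the same RNA and are not independent.

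The probe with the largest rise at 6 h among members above background in both groups was A_30_P01026738 at chr12:88216447-88224965, strand R. Its values were -3.71 and -3.37 in Fv2E-PERK mock cells, 2.99 and 3.16 after 6 h, 3.01 and 3.12 after 12 h, 2.80 and 2.97 after 24 h and 1.46 and 1.30 after 48 h. The AP20187 arrays lay far above the mock arrays at every time, and the probe was above background on none of the 9 fatty acid arrays. The change was 6.62 ± 0.30 (SE, n = 2; adjusted p = 2.56e-06) at 6 h and 4.92 ± 0.30 (SE, n = 2; adjusted p = 7.4e-06) at 48 h. No other of the 6 probes of its locus was higher at any of 6, 24 or 48 h.

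At chr11:6421951-6429173 a probe of each strand rose strongly. Of the 10 probes of this locus 3 were higher and 1 lower at 6 h, 6 higher and 1 lower at 24 h, and 7 higher and none lower at 48 h. On strand F, A_30_P01022952 read -2.32 and -2.82 in mock cells, 1.28 and 1.04 after 6 h, 1.64 and 1.64 after 12 h, 2.01 and 2.22 after 24 h and 1.57 and 1.56 after 48 h. Its change was 3.73 ± 0.16 (SE, n = 2; adjusted p = 2.2e-06) at 6 h and 4.69 after 24 h, with no overlap of groups. On strand R, A_30_P01032909 was above background on neither mock array and read -2.71 and -2.50 after 6 h, -1.33 and -1.14 after 12 h, -0.35 and -0.32 after 24 h and 0.14 and 0.06 after 48 h. As a bound, this probe was at least 13.3-fold higher at 24 h and at least 18-fold higher at 48 h than in mock cells (adjusted p = 1.11e-05 and 1.05e-05). The levels of the F and R probes cannot be set against each other, since each probe has its own response.

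A locus of 17 member probes at chr2:158169020-158191295 rose on both strands. In it 13 probes were higher and 2 lower at 6 h, and 15 higher and 1 lower at 48 h. Its R probe A_30_P01028387 read 1.13 and 1.21 in mock cells, 4.67 and 4.59 after 6 h, 4.68 and 4.67 after 12 h, 5.05 and 5.28 after 24 h and 4.97 and 4.96 after 48 h. All AP20187 arrays lay above the mock arrays and close to each other, with a change of 3.46 ± 0.09 (SE, n = 2; adjusted p = 7.66e-07) at 6 h and 3.79 after 48 h. Wild-type cells held it at 1.43 and 1.34 with mock treatment, and palmitate did not change it past the threshold (0.22, adjusted p = 0.0618).

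At chr14:77077374-77086910, strand F, the rise was slower. Its probe A_30_P01026441 was above background on no fatty acid, wild-type mock or Fv2E-PERK mock array. It read -2.96 and -3.08 after 6 h, -1.58 and -1.13 after 12 h, 0.61 and 0.68 after 24 h and 0.67 and 0.68 after 48 h. Each time point up to 24 h lay above the one before, and at 24 h and 48 h the signal was at least 26.3-fold and 26.8-fold higher than in mock cells (adjusted p = 5.43e-06 and 7.08e-06). All 3 probes of the locus were higher at 24 h and at 48 h.

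Another locus rose for a time and came back on 1 strand. All 12 probes of chrX:54627918-54638568, 4 on F and 8 on R, were higher at 6 h by 1.06 to 1.82, at 12 h by 1.17 to 2.08 and at 24 h by 0.77 to 1.79. At 48 h 4 of the 12 were called higher than in mock cells, and 11 were lower than at 6 h; the F probes were then at 0.50 to 0.96 above mock and the R probes at -0.21 to 0.26. Its F probe A_30_P01029326 read -0.77 and -0.38 in mock cells, 1.15 and 1.33 after 6 h, 1.09 and 1.34 after 24 h and 0.01 and 0.34 after 48 h. On strand R of chr7:69008096-69070309, A_30_P01024727 was above background on neither mock array and at least 5.9-fold higher at 6 h (adjusted p = 1.8e-06). It read -1.58 and -1.32 after 6 h and -3.52 and -3.42 after 48 h.

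**Figure D4:**
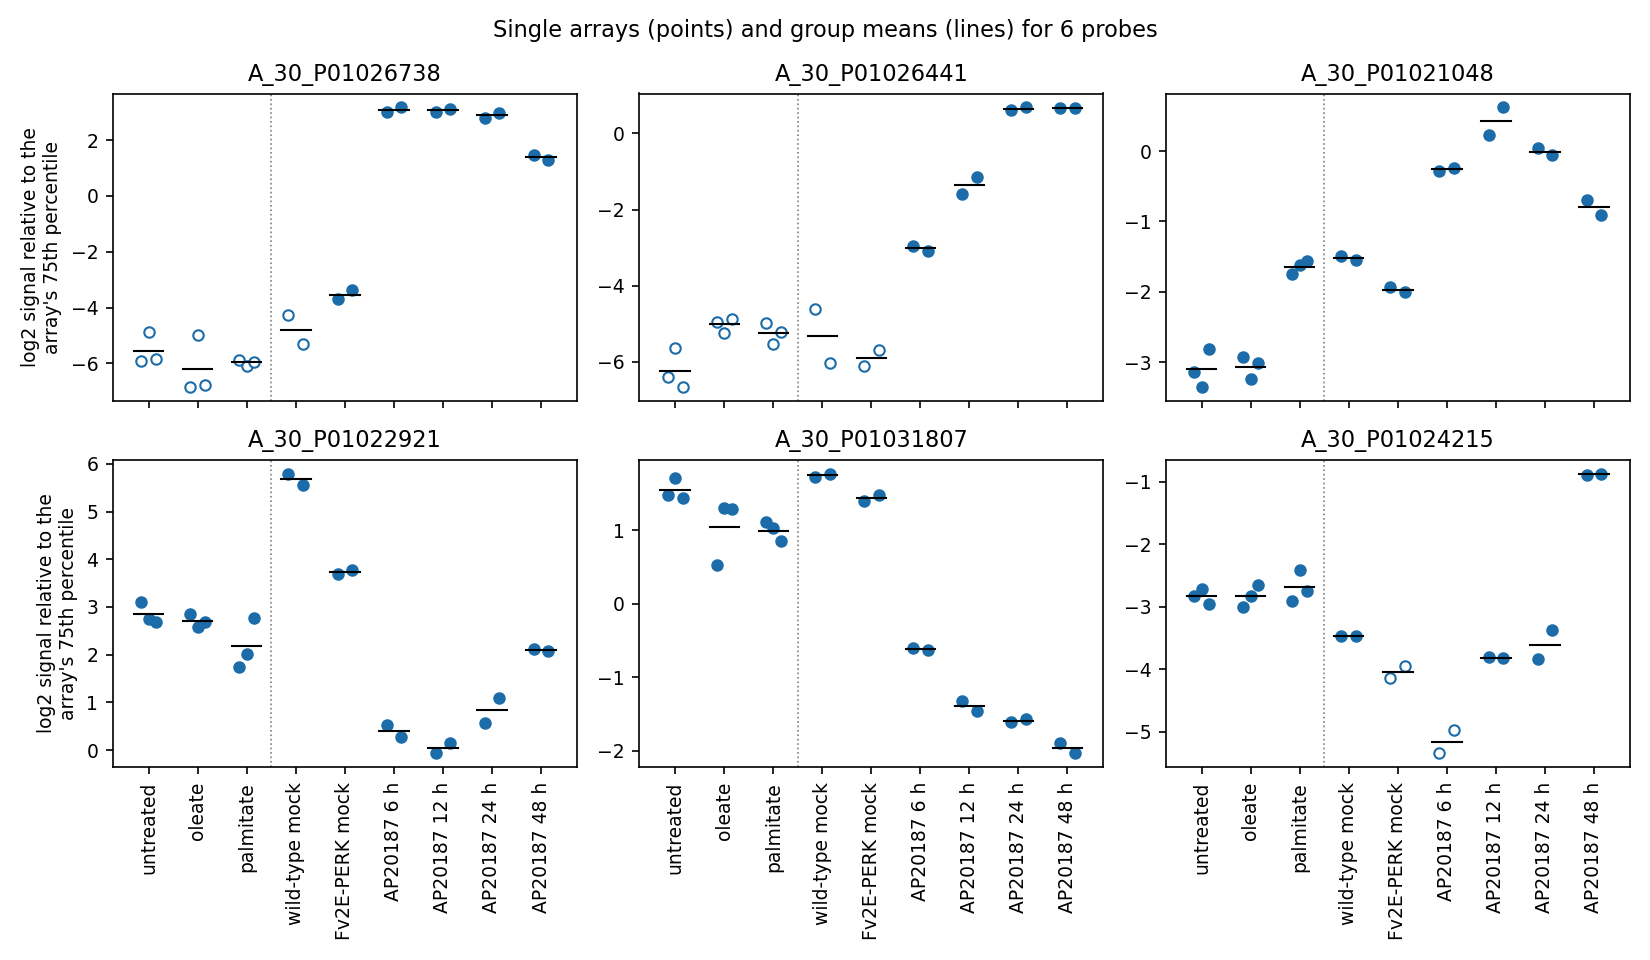
Each panel plots 1 probe's log2 signal relative to the array's 75th percentile (vertical axis) on every array of the 9 groups (horizontal axis). Filled points are groups above background on all arrays, open points the others, and lines are group means. A_30_P01026738 rises by 6.62 after 6 h, A_30_P01026441 climbs from 6 h to 24 h, A_30_P01021048 rises with palmitate and with AP20187, A_30_P01022921 and A_30_P01031807 fall, and A_30_P01024215 is highest at 48 h.

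The largest fall at 6 h among members above background in both groups was at chr8:44232164-44267061, strand R. Its probe A_30_P01022921 read 3.69 and 3.77 in Fv2E-PERK mock cells, 0.53 and 0.28 after 6 h, -0.07 and 0.15 after 12 h, 0.57 and 1.09 after 24 h and 2.12 and 2.07 after 48 h. All AP20187 arrays lay below the mock arrays, by 3.33 ± 0.18 (SE, n = 2; adjusted p = 4.68e-06) at 6 h and by 1.63 after 48 h. Wild-type mock arrays read 5.80 and 5.56, above those of Fv2E-PERK mock cells by 1.95 (adjusted p = 0.000267). It was the only 1 of the 5 probes of its locus that was lower at 6, 24 or 48 h.

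At chr7:37480456-37481372, strand F, all 3 probes fell at 6, 12, 24 and 48 h and stayed low. A_30_P01031807 read 1.40 and 1.49 in mock cells, -0.60 and -0.63 after 6 h, -1.32 and -1.45 after 12 h, -1.61 and -1.57 after 24 h and -1.90 and -2.04 after 48 h. The groups did not overlap between mock and any time, and the change went from -2.06 ± 0.08 after 6 h to -3.41 ± 0.08 after 48 h (SE, n = 2; adjusted p = 1.62e-06 and 2.04e-07). At chr13:98062189-98066613, strand F, A_30_P01029666 fell from -0.96 and -0.83 in mock cells to -2.59 and -2.63 after 6 h and -4.66 and -4.42 after 48 h. Its 48 h change was -3.65 ± 0.18 (SE, n = 2; adjusted p = 3.53e-06). It also fell by 0.62 with palmitate (adjusted p = 0.00023), or by 0.65 (adjusted p = 0.012) without palmitate replicates 1 and 2.

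Whole loci fell on chromosomes X and 16. Of the 14 member probes of chrX:90997595-91009570, 12 were tested in the PERK experiment and all 12 were lower at 6 h and at 24 h. For the 10 that were above background on all arrays of both groups the falls were 0.98 to 1.44 and 0.82 to 1.84. Mock arrays differed at its probe A_30_P01028449 (-3.63 and -1.87), and the probe was above background on no array at 6, 24 or 48 h. On strand R of chr16:4585697-4594230 all 7 probes were lower at every time. At 48 h they were lower by 1.06 to 1.60. The 6 h falls there were 0.47 to 0.65, and for A_30_P01030611 the 6 h change of -0.61 became 0.06 with spike-in scaling.

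The transcripts that turned between 6 h and 48 h included 2 large loci. At chr17:26911032-26917047 20 of 22 probes were lower at 6 h, 14 were higher at 24 h, 20 were higher at 48 h, and all 22 rose from 6 h to 48 h. Of the 15 above background on all mock and 6 h arrays, all were lower at 6 h, by 1.11 to 1.92, and all rose from 6 h to 48 h, by 1.73 to 3.07. Its R probe A_30_P01018107 read -3.87 and -3.41 in mock cells, -5.84 and -6.31 after 6 h, -3.84 and -3.50 after 12 h, -3.26 and -2.53 after 24 h and -1.23 and -1.32 after 48 h. It was below background on the mock and 6 h arrays, so the fall at 6 h has no measured size, and the 48 h level was at least 13.2-fold above the 6 h level (adjusted p = 1.32e-05).

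The other locus, chr13:94180737-94203935, held 26 member probes, of which 20 were lower at 6 h, 15 were higher at 48 h and 20 rose from 6 h to 48 h. Among the 12 above background on all mock and 6 h arrays 10 were lower at 6 h, and 8 of the 12 measured at 6 h and 48 h rose. On strand F of chr13:94182877-94203852, A_30_P01029294 read -3.53 and -2.93 in mock cells, -5.39 and -4.43 after 6 h, -3.31 and -3.29 after 12 h, -3.16 and -2.83 after 24 h and -0.56 and -0.42 after 48 h. It was lowest at 6 h, where 1 of the 2 arrays was above background, did not pass the threshold at 12 and 24 h (adjusted p = 0.85 and 0.516) and was highest at 48 h. The size of its fall at 6 h is therefore not well measured, and the 48 h change from mock was 2.74 (adjusted p = 0.000125). Against wild-type mock cells on the same slide the 48 h change was 2.32 (adjusted p = 0.00025). With palmitate none of the 22 tested probes of the chromosome 13 locus was called, and 6 of the 18 tested probes of the chromosome 17 locus were lower.

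Another locus was higher at 48 h along its whole length. All 10 probes of chr8:124355710-124401160 were higher at 48 h than in mock cells, by 0.44 to 2.32 for the 6 above background in both groups, while 4 were higher and 1 lower at 6 h and 8 higher and 1 lower at 24 h. Its R probe A_30_P01028489 read -3.39 and -3.36 in mock cells and -0.94 and -1.17 after 48 h, and its change of 2.32 (adjusted p = 0.0181) lost its call without any 1 of these 4 arrays, with adjusted p between 0.0558 and 0.0747. The wild-type mock arrays lay far apart at this probe (-5.11 and -2.53). On strand F of chr1:59449275-59474025, A_30_P01026254 was above background on no array of the fatty acid, mock, 6 h or 12 h groups, read -4.74 and -4.36 after 24 h, and reached -2.50 and -2.53 after 48 h (at least 2.94-fold higher than mock; adjusted p = 1.92e-06).

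The opposite turn, higher early and lower late, was made by probes of other loci. On strand F of chr17:8718223-8949898, A_30_P01033111 read -0.25 and -0.06 in mock cells, 1.51 and 1.71 after 6 h, 1.23 and 1.32 after 12 h, -0.09 and 0.26 after 24 h and -0.60 and -0.73 after 48 h. Arrays of 6 h and 12 h lay above all others, with a change of 1.76 ± 0.13 (SE, n = 2; adjusted p = 1.84e-05) at 6 h. The 48 h change of -0.51 (adjusted p = 0.0103) became 0.08 with spike-in scaling. The probe did not respond past the threshold to palmitate (0.00, adjusted p = 0.991). On strand R of chr11:119797116-119804012, A_30_P01017718 read -1.37 and -1.45 in mock cells, 0.13 and 0.03 after 6 h, 0.16 and 0.26 after 12 h, -1.50 and -1.21 after 24 h and -2.19 and -2.18 after 48 h. It was above mock level early, not called at 24 h and below mock at 48 h. Of the 7 probes of its locus, chr11:119794849-119804012, that were above background on the arrays compared, 6 were higher after 6 h, 6 were higher after 12 h and 6 were lower after 48 h.

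Single probes of opposite strands could move against each other. At chr17:22420025-22457650 a probe of strand F (A_30_P01024662) read 5.26 and 5.22 in mock cells, 3.18 and 3.18 after 6 h and 4.51 and 4.61 after 48 h. A probe of strand R (A_30_P01029664) read 0.95 and 1.09 in mock cells, 2.04 and 1.91 after 6 h and 0.70 and 0.65 after 48 h. The F probe changed by -2.06 ± 0.13 and the R probe by 0.95 ± 0.11 after 6 h (SE, n = 2; adjusted p = 9.92e-06 and 0.000193), and neither probe's 6 h and mock arrays overlapped. Between 6 h and 48 h they went back, by 1.38 and -1.29. In their locus the 11 R probes had changes of 0.82 to 1.10 at 6 h, and 4 of the 6 F probes also had changes above 0, within a range of -2.06 to 1.07.

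**Figure D5:**
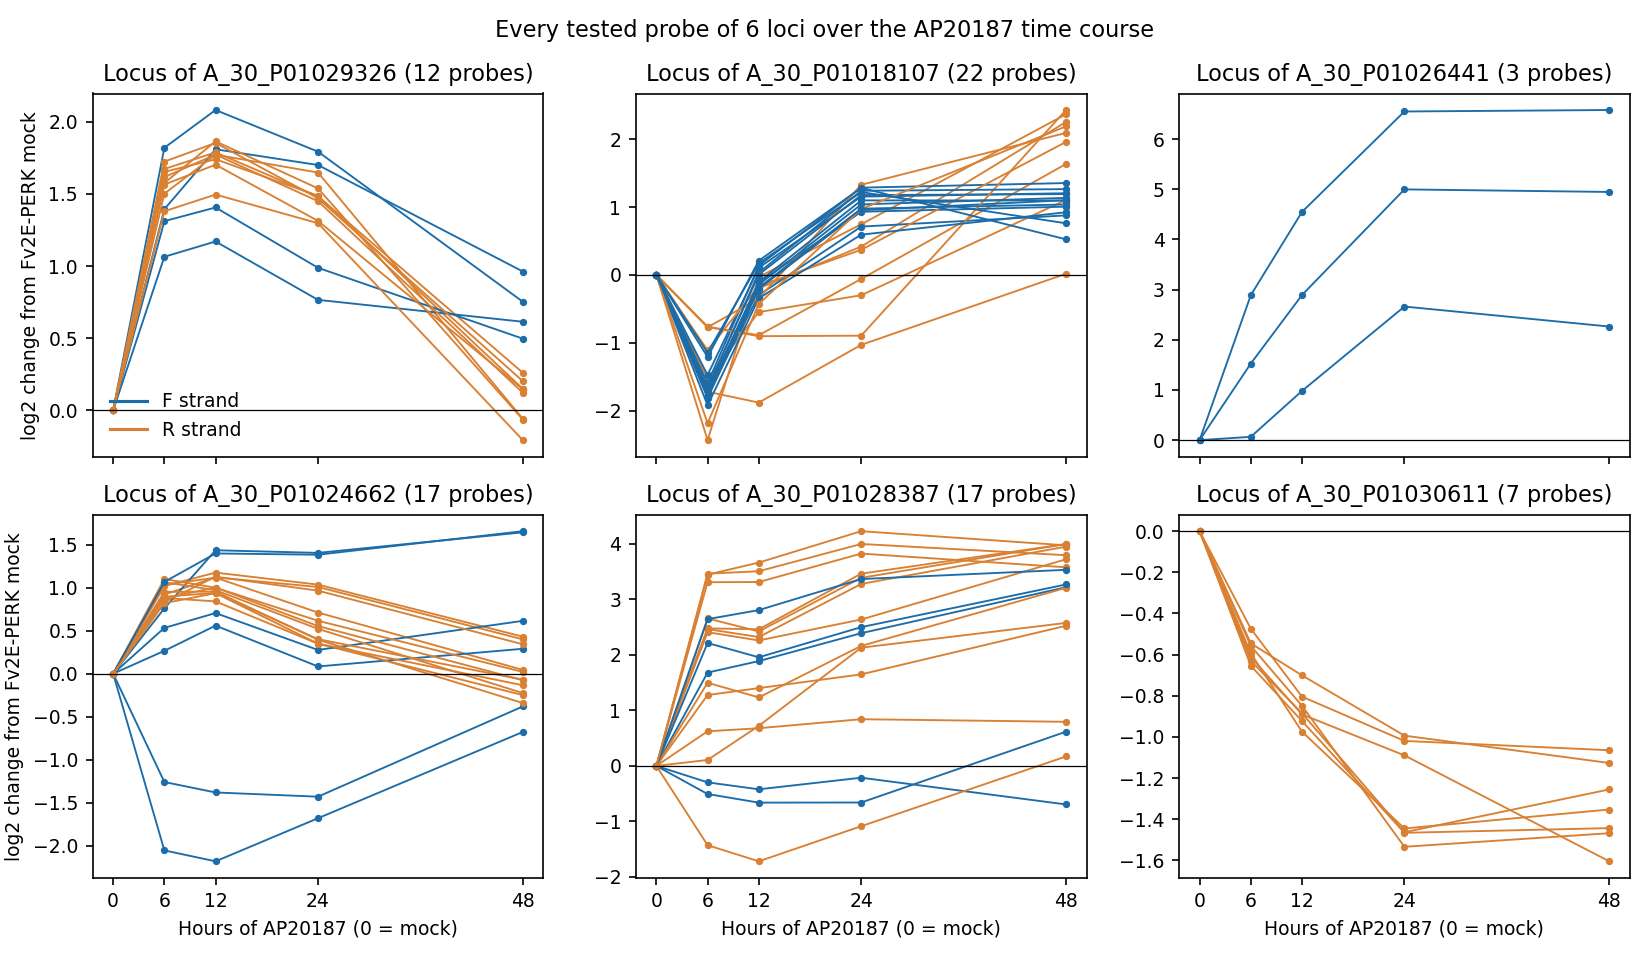
Each panel plots the log2 change from Fv2E-PERK mock (vertical axis) against hours of AP20187 (horizontal axis, mock at 0) for every tested probe of 1 locus, with 1 line per probe, blue for strand F and orange for strand R. The 12 probes of A_30_P01029326's locus rise, and its 8 R probes are between -0.21 and 0.26 at 48 h, the 22 of A_30_P01018107's locus fall at 6 h and are above 0 after 48 h (7 of them with mock or 6 h signal not well above background), and the 7 of A_30_P01030611's locus stay below 0.

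Fv2E-PERK mock cells differed from wild-type mock cells before any AP20187. In that comparison 239 members were higher and 538 lower, where 17.4% of all entries were called (7.9% higher, 9.48% lower), with a median of -0.14 for members and -0.06 for all entries. The total of 777 calls was 492 without wild-type mock replicate 1, 496 without wild-type mock replicate 2 and 468 without Fv2E-PERK mock replicate 1, and slide and group cannot be told apart. Spike-in scaling gave 274 calls, of which 54.7% were higher, against 30.8%. The largest rise among members above background in both groups was at chr9:121845920-121858120, strand F (A_30_P01026237). It read -3.03 and -3.47 in wild-type mock and 0.13 and 0.09 in Fv2E-PERK mock cells, a change of 3.36 ± 0.16 (SE, n = 2; adjusted p = 1.18e-05), and stayed between 0.02 and 1.13 on all AP20187 arrays. On strand R of chr17:33372482-33375285, A_30_P01027826 read -1.69 and -1.38 in wild-type mock and 1.42 and 1.19 in Fv2E-PERK mock cells, a change of 2.84 ± 0.17 (SE, n = 2; adjusted p = 2.51e-05). With AP20187 it went back down, to -0.87 and -0.95 after 6 h, -1.75 and -1.26 after 12 h and 0.22 and 0.27 after 48 h. On strand R of chr14:99735346-99735699, A_30_P01032273 was likewise higher in Fv2E-PERK mock (1.57 and 0.43) than in wild-type mock cells (-1.81 and -1.55) and lower after 12 h of AP20187 (-3.03 and -3.12). On strand F of chr1:58443698-58449898, A_30_P01017776 was above background on the Fv2E-PERK mock arrays (-3.39 and -2.63) and on no other array.

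Long noncoding RNA genes that the array names by symbol were called in both directions. Of 22 such genes on the array 16 were above background. At 6 h 7 were higher and 6 lower, at 24 h 8 and 5, and with palmitate 3 and 1 of 15. Of all 14221 genes with a symbol tested, 4464 were higher and 4928 lower at 6 h, and 4834 and 5007 at 24 h. With palmitate 1194 were higher and 1613 lower of 13221. Snhg1, a host gene of small nucleolar RNAs, rose by 2.46 after 6 h and Snhg12, another such host, by 2.35. Pvt1, a long noncoding RNA gene known for its place next to Myc, rose by 0.99 with palmitate (0.87 without palmitate replicates 1 and 2, adjusted p = 0.0178) and by 2.22 and 3.05 after 6 h and 24 h. Airn, the antisense transcript of Igf2r, and Snhg3 fell at 6 h by 0.93 and 1.22. Whether the difference between these genes and the coordinate-named members exceeds chance was not tested.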

How the data were processed

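Per the file headers and labels, RNA was labelled with Cy3 and hybridised to 1-colour Agilent arrays, and the deposited values are intensities processed by Agilent Feature Extraction 10.7.1.1 (named in the submitters' processing notes). The series matrix deposited by the authors holds log2 values of the same arrays, with their centring unstated, and served as an alternative. Here log2 of the processed signal minus each array's 75th percentile was taken, spots of a probe were averaged, control spots and outlier spots were left out, and limma 3.58.1 (R 4.3.3) was fitted within each experiment to the entries that carried the software's above-background mark on every array of 1 or more groups, with Benjamini-Hochberg adjustment over all of them. The fit was tested on simulated data. Intervals within 10 kb were joined.

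Members and lists were chosen with earlier results of these data known. Named members were, per comparison, up to 3 called each way by size, 2 by bound, loci with all probes called alike, members called with palmitate and at all AP20187 times, members turning between 6 h and 48 h, and loci with opposed strands, 1 probe per locus, leaving out 1 chromosome; other probes named were chosen after their values were seen. Coordinates are mm9 as in the array's names. Alternatives were other scalings (quantile, spike-in, normexp with offset 50), filters, blocks, the series matrix and arrays left out. The number of arrays limits the precision. Probe sequences were not used here.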

Additional observations from a re-analysis of the deposited data

Results flagged for a closer look

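Among probes called in opposite directions against mock at 6 h and at 48 h of AP20187, 6 were chosen by their change from 6 h to 48 h. That change is therefore given as a description and not as a test. It was 4.80 for A_30_P01018107 (-2.44 at 6 h and 2.37 at 48 h against mock), 4.42 for A_30_P01029294 (-1.68 and 2.74) and 4.31 for A_30_P01026254 at chr1:59449275-59474025 (-0.62 and 3.70). It was -2.27 for A_30_P01033111 at chr17:8718223-8949898 (1.76 and -0.51), -2.26 for A_30_P01017718 at chr11:119797116-119804012 (1.49 and -0.78) and -2.14 for A_30_P01028913 at chr15:68170864-68171544 (1.02 and -1.12). The first 3 values include signal at background: A_30_P01018107 was above background on no mock or 6 h array, A_30_P01029294 on 1 of 2 arrays at 6 h and A_30_P01026254 on no mock, 6 h or 12 h array. Their fall at 6 h is therefore not measured in size, and as bounds the 48 h level was at least 13.2-fold (A_30_P01018107) and at least 5.58-fold (A_30_P01026254) above the 6 h level. The 6 h and 48 h arrays were on different slides, so slide and time cannot be told apart. With spike-in scaling the 6 h change of A_30_P01026254 became 0.05 (0.14 after quantile normalization) and the 48 h change of A_30_P01033111 became 0.08.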

How the results depend on the processing

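Called members: with palmitate against untreated, 674 became 158 with spike-in scaling, 376 with normexp, 81 with the series matrix values (blank there for 18.8% to 31.7% of probes on the fatty acid arrays), 248 without a filter on dim probes and 318 without palmitate replicates 1 and 2, and leaving out 1 array gave 405 to 580. For oleate, 13 became 0 (spike-in), 2 (normexp), 26 (series matrix), 1 (no filter), 0 (replicate block), 8 (slide block), 0 (without palmitate replicates 1 and 2) and 0 to 8 (1 array left out). For palmitate against oleate, 381 became 183, 205, 72 and 143 under the first 4 of these settings and 240 without palmitate replicates 1 and 2, with 162 to 409 when 1 array was left out. Without a filter, 6969, 7750, 7729 and 6994 coordinate-named probes were called at 6, 12, 24 and 48 h, and 5490 for 48 h against wild-type mock. Spike-in scaling gave 1779 at 6 h and 274 for Fv2E-PERK against wild-type mock. Leaving out 1 array gave 2643 to 3512 (6 h), 2982 to 3741 (12 h), 2948 to 3628 (24 h), 2295 to 3213 (48 h), 2893 to 3757 (48 h against 6 h), 468 to 947 (Fv2E-PERK mock) and 2371 to 3255 (48 h against wild-type mock). Requiring all 21 arrays leaves 3634 members.

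Pairs of a probe and a comparison chosen by the naming rule numbered 194, and of 3841 alternative values 3515 kept direction and call, 319 lost the call and 7 turned: A_30_P01018294 and A_30_P01031061 at 48 h (-0.24 and -0.30) and A_30_P01019062 and A_30_P01020368 at 48 h against wild-type mock (-0.26 and -0.13) with normexp, and A_30_P01019251 at 6 h (0.013), A_30_P01032885 at 24 h (0.12) and A_30_P01021442 at 48 h against wild-type mock (0.037) with spike-in scaling. The cause was not tested. Over every comparison in which these probes were called, chosen or not, 82 values turned under quantile, spike-in or normexp scaling, among them A_30_P01024727 at 48 h (0.85 to -0.20, normexp) and A_30_P01030611 at 6 h (-0.61 to 0.06, spike-in). Replicate numbers were not taken as pairs, since not every pair correlated above 0.1: deviations of same-numbered arrays correlated at -0.03 to 0.03 over 9 pairs (fatty acid) and -0.01 to 0.12 over 30 pairs (PERK, median 0.07, 28 above 0 and 4 above 0.1). The replicate block kept 9 of 10 counts within 1.5 times, oleate being the exception. Slide as a block could not be fitted for 48 h against mock or 6 h, or for Fv2E-PERK mock against wild-type mock. Low signal limits the dim members, most of all those named with a bound.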
